A study of Mus musculus with 24 samples.

Results

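The genes described here make cholesterol and fatty acids, and comprise 32 of the 45706 genes in the count tables of mouse intestinal organoids. They were taken as a list of named genes of the SREBP pathway and of lipid synthesis, a choice made with earlier results of these data known though its rule names no measured value, and fall into 18 enzymes of sterol synthesis, 6 genes of SREBP control and sterol transfer, and 8 enzymes of fatty acid synthesis. All 32 were found in both tables, and all 32 passed the filter on low counts in each of the fits.

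Organoids of the small intestine (SI) and the colon (COL) were grown from crypts of C57BL/6N mice. BRAF organoids had the genotype BraffloxV600E/+;Villin::CreERT2, p53 organoids Trp53LSL-R172H/+;Villin::CreERT2, and BRAFp53 organoids both conditional alleles with Villin::CreERT2. In each of them the Villin promoter, which is active in intestinal epithelium, drives a Cre recombinase that 4-hydroxytamoxifen (4-HT) activates, which switches on BRAFV600E, a constantly active kinase of the MAPK pathway, or p53R172H, a mutant form of the tumour suppressor p53. Induced organoids (on) had received 4-HT for 24 h, at 0.5 µM in SI and 3.5 µM in COL, and non-induced organoids (off) of the same genotype had received the solvent ethanol. RNA was taken on day 8 in SI and on day 3 in COL. By the methods of the study, colonic medium also received Wnt3a and an inhibitor of the kinase GSK3, which SI medium did not. Tissue, dose, day and medium therefore cannot be told apart. Each genotype was 1 donor culture per tissue with 2 off and 2 on libraries, which gives 12 groups of 2 among 24 libraries. Genotype and culture therefore cannot be told apart either, and the p-values of on against off, and of differences between responses, measure the spread between libraries of one culture, which may be technical. The comparison of off organoids rests on the spread between cultures.

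Cells make cholesterol from acetyl-CoA through mevalonate, squalene and lanosterol, and they make fatty acids from the same acetyl-CoA. Both routes are under the control of SREBP transcription factors, encoded by Srebf1 and Srebf2, which the escort protein Scap carries out of the endoplasmic reticulum when sterols are low, while the Insig proteins hold Scap back when sterols are plentiful. In the intestine, absorptive cells also build and package lipid taken up from food, and crypt cells need sterols and fatty acids for new membranes.

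The start sites of genes in this pathway are known for binding sites of SREBP and of its partner NF-Y. RefSeq promoter windows of 300 bases (build GRCm38.p6) were matched by symbol for 26 members, with 35 windows in all. They were searched on both strands for 4 motifs, which may overlap each other, and a match is a description of the letters only. The sterol regulatory element TCACNCCAC stood in 1 member window, that of Hmgcs1, or 2.86% of member windows against 1.24% of all 32851 windows. The E-box CACGTG was held by 17.1% of member windows against 7.15% of all. The NF-Y box CCAAT was found in 65.7% of member windows, those of 22 genes, against 37.4% of all windows, and the GC box GGGCGG in 74.3% against 35.7%. The windows of 5 members that differed in their response are shown 5′ to 3′ in the direction of the gene, 4 whose transcripts rose in induced SI BRAF organoids and Fasn, whose transcripts passed the test in no comparison. Capitals mark the matches to TCACNCCAC and to CCAAT, the latter read as ATTGG on the other strand.
Hmgcs1 (chr13:119690101-119690400, plus strand): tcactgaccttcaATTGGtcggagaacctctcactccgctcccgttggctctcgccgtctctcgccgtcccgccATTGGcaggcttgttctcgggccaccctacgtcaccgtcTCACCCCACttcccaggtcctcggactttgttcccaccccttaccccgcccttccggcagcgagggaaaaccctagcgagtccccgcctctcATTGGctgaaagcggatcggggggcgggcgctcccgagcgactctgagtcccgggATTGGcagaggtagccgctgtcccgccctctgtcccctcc
Mvk (chr5:114444019-114444318, plus strand): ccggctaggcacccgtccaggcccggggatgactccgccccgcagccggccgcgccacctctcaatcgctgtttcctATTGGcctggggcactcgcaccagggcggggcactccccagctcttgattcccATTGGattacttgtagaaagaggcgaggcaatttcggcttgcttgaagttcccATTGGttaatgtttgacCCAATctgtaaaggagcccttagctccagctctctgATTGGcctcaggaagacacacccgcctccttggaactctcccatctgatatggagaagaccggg
Hsd17b7 (chr1:169969156-169969455, minus strand): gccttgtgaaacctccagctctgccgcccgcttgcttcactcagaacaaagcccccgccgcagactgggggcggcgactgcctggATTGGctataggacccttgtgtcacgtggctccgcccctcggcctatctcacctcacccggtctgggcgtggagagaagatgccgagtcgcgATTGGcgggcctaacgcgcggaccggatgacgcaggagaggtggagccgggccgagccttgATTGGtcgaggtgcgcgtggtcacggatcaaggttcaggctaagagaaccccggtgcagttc
Insig1 (chr5:28071162-28071461, plus strand): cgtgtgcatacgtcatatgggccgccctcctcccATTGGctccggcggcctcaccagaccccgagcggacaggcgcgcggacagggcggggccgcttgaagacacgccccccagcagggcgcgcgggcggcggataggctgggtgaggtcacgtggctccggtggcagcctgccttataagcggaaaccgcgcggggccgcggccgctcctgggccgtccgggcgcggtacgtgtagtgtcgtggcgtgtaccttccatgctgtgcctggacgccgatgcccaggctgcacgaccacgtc
Fasn (chr11:120824498-120824797, minus strand): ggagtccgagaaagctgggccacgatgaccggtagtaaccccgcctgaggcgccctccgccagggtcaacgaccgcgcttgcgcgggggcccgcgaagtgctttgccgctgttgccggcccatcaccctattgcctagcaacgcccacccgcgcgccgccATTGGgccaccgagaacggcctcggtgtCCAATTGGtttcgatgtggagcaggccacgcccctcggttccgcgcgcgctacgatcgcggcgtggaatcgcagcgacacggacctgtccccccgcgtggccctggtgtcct
Hmgcs1 has 4 NF-Y boxes, Mvk 5, Hsd17b7 3, Insig1 1 and Fasn 3, and the motif was thus present in windows of genes that rose and of 1 that did not pass.

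The libraries held 51.2 to 78.2 M counts in COL (M for mega, median 63.0) and 44.4 to 68.2 M in SI (median 56.3), and the members made up 0.626 to 0.855% of the counts in COL and 0.672 to 0.886% in SI. Levels are given as CPM, which are counts per M of a library size adjusted by TMM. Organoids are epithelium, and the 6 epithelial markers summed to between 4457 and 19582 CPM in every library, whereas 10 stromal and immune markers summed to at most 4.71 CPM, with 2 to 8 of them at 0. A list of 6 genes of fat cells and liver, the other main lipid-making cells, summed to at most 53 CPM with 3 to 5 of them at 0, and Plin1, which defines fat cells, was at 0 in all libraries. The regional markers did not all separate the tissues. Car1, a carbonic anhydrase of colon epithelium, was at 1473 to 20037 CPM in COL and at most 0.240 in SI, and Lct and Apoa4 were higher in every SI than in every COL library. Hoxb13 was near 0 in both (at most 0.482 CPM), Car4 overlapped (1.66 to 126 in COL and 0 to 35 in SI), Fabp6 overlapped too, and Lyz1, a lysozyme of Paneth cells, was higher in COL (255 to 1904) than in SI (36.4 to 139). Gata4, a factor of the upper small intestine, was at 35.8 to 54.8 CPM in the 4 COL BRAF libraries against 0.320 to 2.95 in the other COL libraries and 72.9 to 109 in SI. In a further check, SI BRAF on replicate 1 held 15.4 CPM of Xist, a transcript made by cells with an inactive X chromosome, whereas the other 3 libraries of that culture held 0.206 to 0.437 and the SI p53 and SI BRAFp53 cultures 104 to 150. All COL libraries held at most 0.044 CPM of Xist and 51.2 to 71.7 of the Y-linked Ddx3y, which SI BRAF libraries held at 30.5 to 36.2 and the other SI cultures at up to 0.0582. The sex of the donor therefore cannot be told apart from genotype between SI BRAF and SI BRAFp53, nor from tissue in BRAFp53 and in most of the off cultures. In the same 4 COL BRAF libraries, and beside Gata4, Fabp1 was at 7.53 to 100 CPM (at most 0.645 in the other COL libraries) and Apoa4 at 8.25 to 13.1 CPM (at most 2.33), so the colonic label of this culture is uncertain, as is what COL means in each comparison that uses it. The members' results that rest on the library with Xist reads, and the counts of the pathway lists, are therefore also given without it, as is the comparison of off organoids without the COL BRAF culture.

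In off organoids the question was how far SI and COL differed at baseline, with the 2 off libraries of a culture summed and 3 SI cultures set against 3 COL cultures. To order the members within a tissue, levels were corrected for gene length (CPM per kb of exon, median of the cultures), with each tissue scaled on its own, so these values are not compared between the tissues. Scd2, a stearoyl-CoA desaturase, was the highest member in both tissues, at 301 in COL and 244 in SI. Hmgcs1, the synthase at the entry to the mevalonate route, came next in COL at 168, ahead of Acat2, the cytosolic thiolase, at 91.2. In SI the order after Scd2 was Acat2 at 123, Insig1 at 117 and Hmgcs1 at 97.6, and the ranges of Acat2 (117 to 123) and Insig1 (105 to 140) overlapped, as did those of Hmgcs1 (83.3 to 100) and Mvd (86.0 to 99.2). The lowest levels per kb belonged to Scap, Fdps and Acaca in both tissues, at 3.19 to 3.86 in SI and 3.36 to 3.50 in COL, of which Fdps shares 26.7% of its exonic bases with another gene model, so its count is uncertain.

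Between the tissues, with CPM of a scaling across both, 13 of 32 members passed the test in off organoids, 10 higher in SI and 3 higher in COL, where 29.6% of all genes tested were called (12.6% higher in SI and 17% lower). The median difference of the members was 0.26 on the log2 scale, SI over COL, against −0.08 over all genes. Of 12 enterocyte markers 11 were called higher in SI (median 3.44) and of 6 epithelial markers 3 lower (median −0.81), and their part was not tested. Scd1, the other desaturase, was at 253, 518 and 494 CPM in the off SI cultures of BRAF, BRAFp53 and p53 and at 141, 91.3 and 146 CPM in the COL cultures. Every SI culture lay above every COL culture, and the difference was 1.74 ± 0.32 (log2, SE; edgeR adjusted p = 0.00855). Acly, which makes cytosolic acetyl-CoA from citrate, went the other way, with 210, 192 and 172 CPM in SI and 409, 331 and 410 CPM in COL (−1.0 ± 0.15, adjusted p = 0.00484). The 2 groups of cultures again did not overlap. Hmgcs1 was higher in COL (855 ± 213 CPM, SD, n = 3 cultures) than in SI (487 ± 44.4; −0.81 ± 0.21, adjusted p = 0.0252), as was Hsd17b7, a ketoreductase of sterol demethylation (−0.77 ± 0.19, adjusted p = 0.0213). Insig1 was higher in SI, at 421 ± 65.1 against 187 ± 67.7 CPM (1.17 ± 0.29, adjusted p = 0.0236), and so was the sterol isomerase Ebp, at 185 ± 16.3 against 93.9 ± 24.0 CPM (0.98 ± 0.20, adjusted p = 0.0115). Mvk, Pmvk, Tm7sf2, Nsdhl, Sc5d, Acat2 and Srebf1 were higher in SI by 0.52 to 0.74. Scd2 was at 1506 ± 45.6 CPM in SI and 1525 ± 168 in COL, and Fasn, the fatty acid synthase, at 339 ± 16 and 313 ± 26.7 CPM, and neither passed the test. Without the COL BRAF culture, 11 members were called, of which 9 were among the 13, and Tm7sf2, Mvk, Sc5d and Nsdhl no longer passed. Without a filter on low counts Mvk, Sc5d and Nsdhl did not pass either (adjusted p from 0.0507 to 0.0575).

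**Figure D1:**
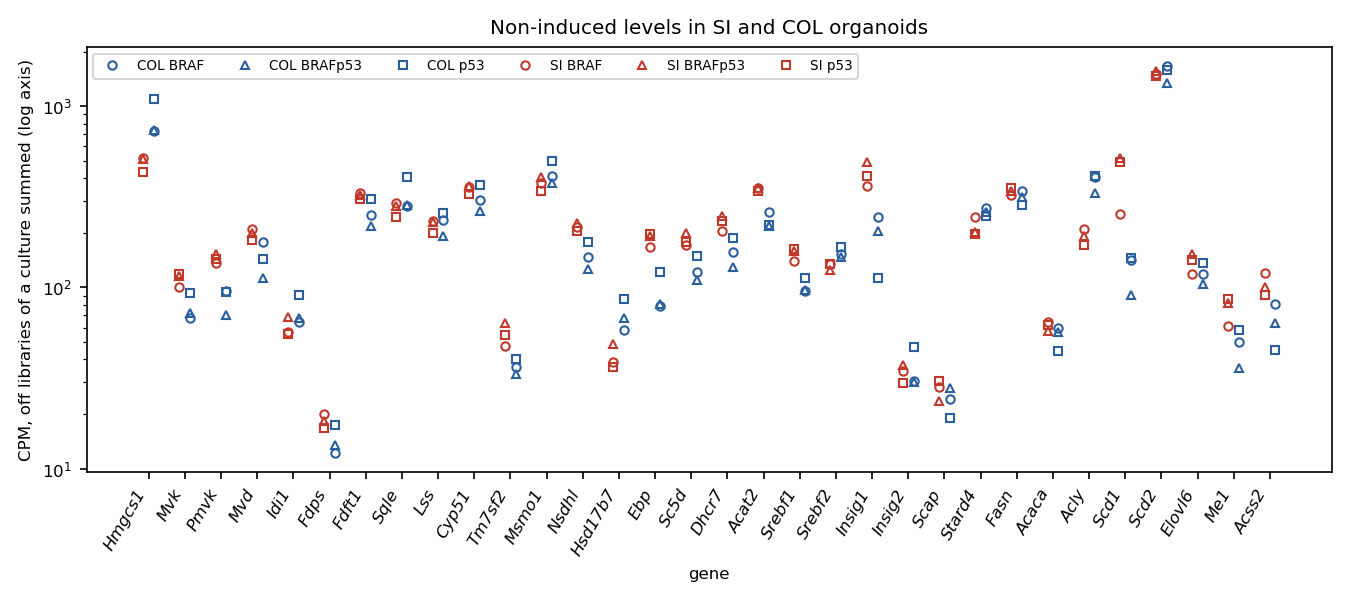
Levels of the 32 members in off organoids, in CPM on a log axis, with 1 point per culture (off libraries summed) for 3 SI and 3 COL cultures. Scd1 and Insig1 lie higher in all SI cultures and Acly and Hmgcs1 higher in all COL cultures, while Scd2 and Fasn lie close together.

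Induction of BRAFV600E alone in SI was followed by higher transcript levels along most of the sterol route. Of the 32 members, 21 rose and 0 fell in SI BRAF organoids, where 31.7% of all genes tested were called (17.5% up and 14.2% down), and the median log2 fold change of the members was 0.50 against −0.06 over all genes. By class, 15 of 18 sterol enzymes rose (median 0.65), as did 3 of 6 genes of SREBP control and 3 of 8 fatty acid enzymes (median 0.03). Both on libraries lay above both off libraries for 25 members and below them for 5, where 30.3% and 32.9% of all genes did so. The 32 members together summed to 6373 and 6812 CPM without induction and to 9537 and 10020 CPM with it.

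**Figure D2:**
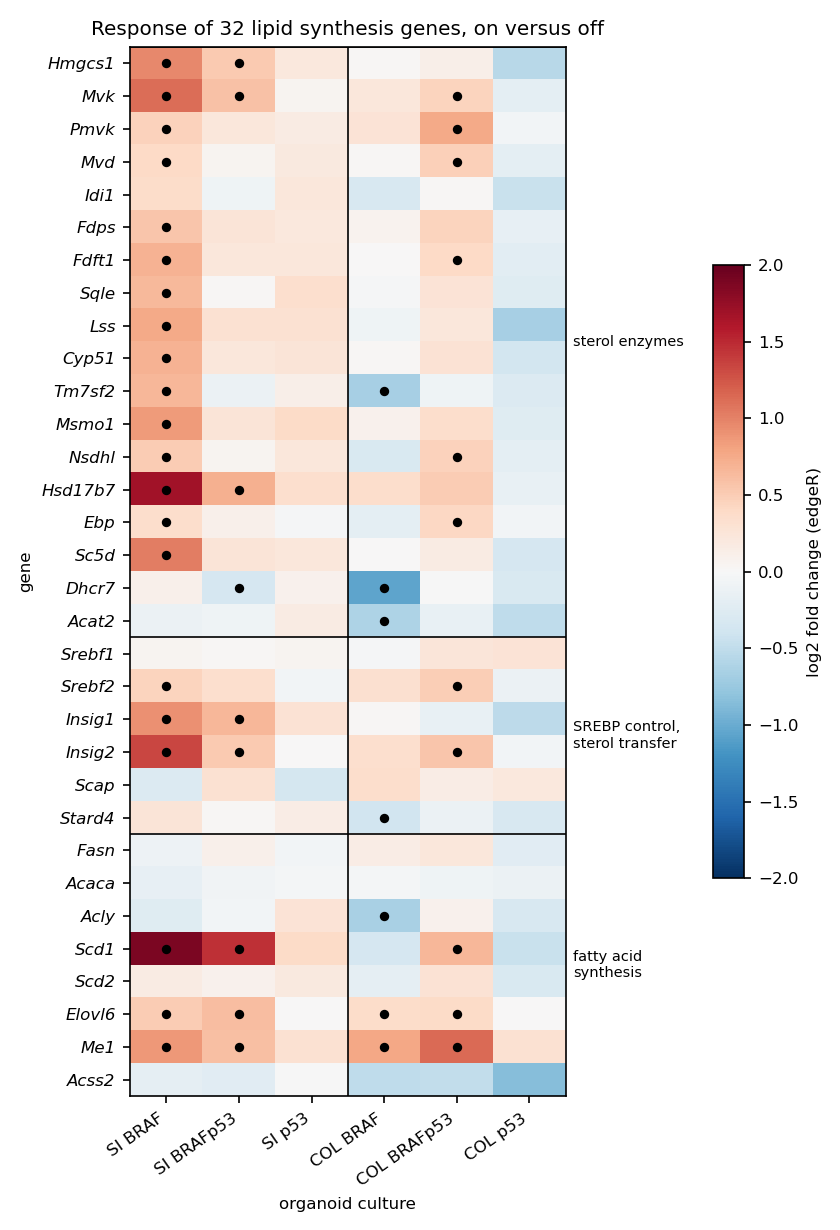
Log2 fold change of on against off for the 32 members (vertical) in the 6 arms (horizontal, 2 on and 2 off libraries each), red for higher and blue for lower in on, with a black dot where edgeR's adjusted p was under 0.05. Most sterol enzymes carry a dot in SI BRAF and none does in either p53 arm.

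Among the early enzymes, Hmgcs1 stood at 863 and 931 CPM in the SI BRAF on libraries and at 483 and 439 CPM in the off libraries (0.96 ± 0.09, edgeR adjusted p = 6.46e-06). Mvk, the mevalonate kinase, stood at 179 and 202 CPM against 82.5 and 94.8 CPM (1.11 ± 0.11, adjusted p = 1.07e-05). For both genes the on libraries lay well clear of the off libraries. The next enzymes moved less, with Pmvk at 0.46 ± 0.10, Mvd at 0.40 ± 0.13 and Fdps at 0.56 ± 0.18 (adjusted p from 0.00266 to 0.0304). Idi1, the isomerase between them, did not pass (0.36 ± 0.15, adjusted p = 0.0876). In the middle of the route, where squalene is made and closed into lanosterol, Fdft1 rose by 0.69 ± 0.11, Sqle by 0.65 ± 0.10 and Lss by 0.76 ± 0.11. Sqle, the squalene epoxidase, is a known control point of the route, and stood at 398 and 412 CPM against 261 and 256 CPM. Fdft1 shares 18.3% of its exonic bases with Ctsb on the opposite strand. Its count is uncertain, since the use of strand in counting was not stated.

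The largest rise of a sterol enzyme was that of Hsd17b7, from 32.5 and 35.9 CPM in SI BRAF off libraries to 104 and 116 CPM after induction (1.68 ± 0.14, edgeR adjusted p = 2.03e-06). Its partners in the removal of methyl groups from lanosterol rose less, with Msmo1 at 583 and 634 against 360 and 314 CPM (0.85 ± 0.11), Nsdhl at 0.51 ± 0.12 and the demethylase Cyp51 at 0.70 ± 0.12. Sc5d, a sterol desaturase near the end of the route, went from 168 and 139 to 306 and 319 CPM (1.02 ± 0.12, adjusted p = 4.17e-05). The on libraries were the higher ones throughout, with no overlap. The reductase Tm7sf2 rose by 0.66 ± 0.13 and the isomerase Ebp by 0.35 ± 0.09. Besides Idi1, the exceptions stood at both ends of the route. Dhcr7, the reductase that makes cholesterol from its direct precursor, was at 185 and 201 against 182 and 180 CPM (0.10 ± 0.10, adjusted p = 0.504), and the thiolase Acat2 had a fold change of −0.12 ± 0.14 (adjusted p = 0.558).

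Among the control genes, both Insig transcripts rose in SI BRAF. Insig1 went from 359 and 289 to 595 and 631 CPM (0.92 ± 0.14, edgeR adjusted p = 0.000281), and Insig2 from 31.3 and 30.1 to 72.1 and 82.6 CPM (1.33 ± 0.13, adjusted p = 9.09e-06). The groups did not overlap in either gene. Srebf2, the SREBP gene linked mainly to sterol enzymes, rose by 0.44 ± 0.12, with 156 and 167 CPM against 120 and 119 CPM. Srebf1, linked more to fatty acid enzymes, stood at 117 and 140 against 118 and 128 CPM (0.06 ± 0.11, adjusted p = 0.716), so its groups overlapped. Scap (−0.27, adjusted p = 0.247) and the sterol carrier Stard4 (0.25 ± 0.09, adjusted p = 0.0599) did not pass.

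The fatty acid enzymes divided in SI BRAF. Scd1, which puts the double bond into stearate and palmitate, rose from 242 and 210 CPM to 781 and 893 CPM, a fold of 3.70 (1.89 ± 0.12 on the log2 scale, edgeR adjusted p = 2e-07) and the largest change among the members. Elovl6, which lengthens palmitate, rose from 100 and 108 to 140 and 153 CPM (0.50 ± 0.11, adjusted p = 0.00299). Me1, the malic enzyme that supplies NADPH, rose from 59.6 and 50.2 to 105 and 94.4 CPM (0.86 ± 0.17, adjusted p = 0.00205). The other 5 did not pass, and 4 of them had values below 0. These were Fasn at −0.10, the acetyl-CoA carboxylase Acaca at −0.16, Acly at −0.24 and the acetyl-CoA synthetase Acss2 at −0.18, while Scd2 stood at 0.17.

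**Figure D3:**
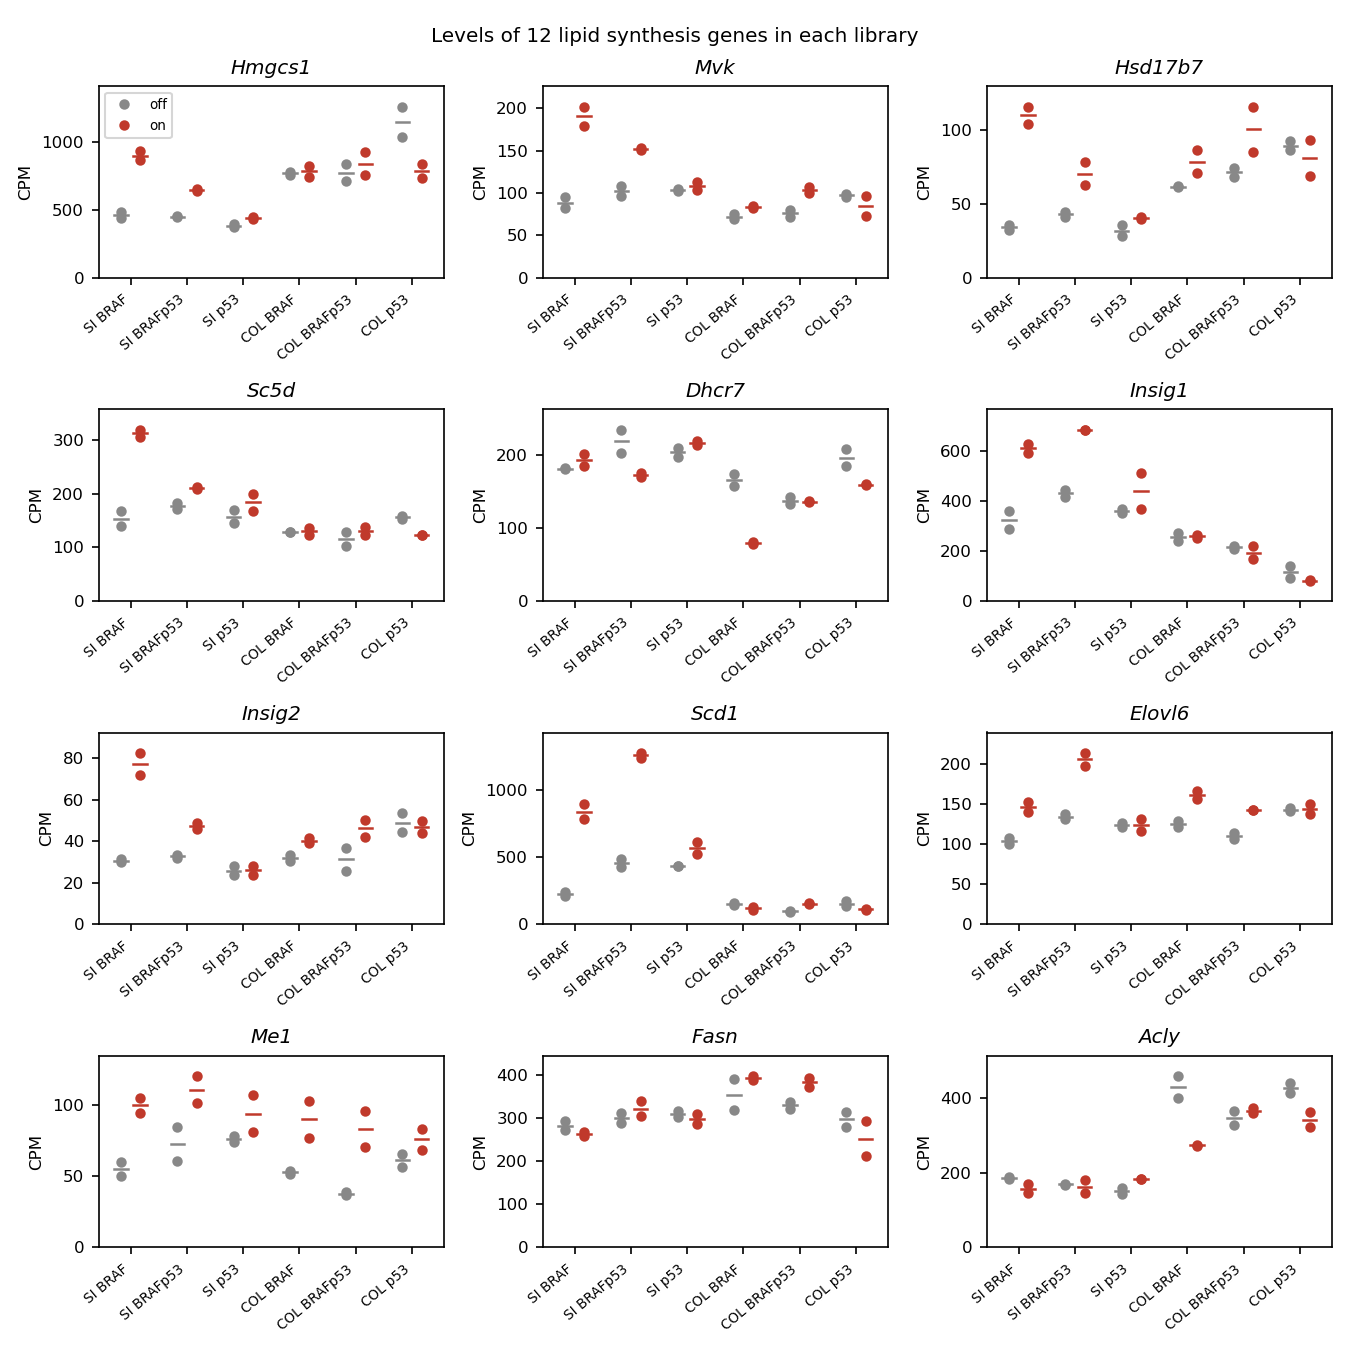
CPM of 12 members in each library (points; line, mean of 2) with off libraries in grey and on libraries in red, by tissue and genotype. Scd1 and Hsd17b7 separate most clearly in SI BRAF, while Fasn (259 and 269 CPM in on, 273 and 294 in off) and Dhcr7 differ little there and did not pass.

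Other cell state markers moved in the same libraries. All 12 markers of enterocytes, the absorptive cells, rose in SI BRAF (median log2 fold change 2.17), and their summed level went from 11867 to 15344 CPM in off to 50710 to 56407 CPM in on libraries. Of 9 proliferation genes 5 fell, and their sum went from 1260 to 1352 CPM to 642 to 1008 CPM. Of 6 epithelial markers 4 rose, with sums of 5519 CPM in both off and 9085 to 10335 CPM in the on libraries. Of 5 small intestine region markers 3 rose and 1 fell (sums of 531 to 587 CPM in off and 2408 to 3009 CPM in on). Lct and Apoa4 are on this list and on the enterocyte list. Of 2 colon region markers tested 1 rose. The colon region list summed to 13.9 to 44.1 CPM in SI BRAF, against 1.37 to 6.27 CPM in the other SI cultures. Mitochondrial genes took 6.46 and 7.39% of the counts in off and 3.58 and 3.94% in on libraries. The part of these shifts in the members' values was not tested, and in bulk RNA a change in the number of cells of a type cannot be told apart from a change in RNA per cell. Without SI BRAF on replicate 1, the library with Xist reads, all 21 members were still called and the median was 0.54, while 12 of 12 enterocyte markers rose and 8 of 9 proliferation genes fell. Without on replicate 2, 18 were called and Mvd, Fdps and Srebf2 no longer passed.

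In SI BRAFp53 organoids, in which both mutants were induced, 8 members rose and 1 fell, where 11.5% of all genes were called (6.98% up and 4.53% down). The median of the members was 0.23 against −0.03 over all genes, and the on libraries lay above the off libraries for 20 members and below for 2, against 26.6% and 28.2% of all genes. The desaturase Scd1 went from 487 and 426 to 1242 and 1276 CPM (1.46 ± 0.12, edgeR adjusted p = 4.98e-06, a fold of 2.76). These on libraries held the highest Scd1 levels among the SI libraries. Insig1 went from 446 and 418 to 685 and 687 CPM (0.67 ± 0.14, adjusted p = 0.00771), and Insig2 from 32.1 and 33.6 to 49.0 and 45.8 CPM (0.53 ± 0.13, adjusted p = 0.0205). Neither gene's on libraries overlapped the off libraries.

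Of the 18 sterol enzymes, 3 rose in SI BRAFp53. Hmgcs1 went from 445 and 452 to 654 and 636 CPM (0.52 ± 0.09, edgeR adjusted p = 0.00238), Mvk from 108 and 96.4 to 151 and 153 CPM (0.58 ± 0.11, adjusted p = 0.00469), and Hsd17b7 from 44.6 and 41.4 to 63.0 and 78.2 CPM (0.71 ± 0.14, adjusted p = 0.00448). Dhcr7, at the end of the route, fell from 234 and 202 to 175 and 170 CPM (−0.34 ± 0.10, adjusted p = 0.0477), a call that was lost with RLE size factors (adjusted p = 0.0644) and without a filter on low counts (adjusted p = 0.0881), with a replicate block (adjusted p = 0.0739) and without any 1 of the 4 libraries. The squalene epoxidase Sqle, which rose in SI BRAF, stood here at 258 and 249 against 266 and 233 CPM, and its groups overlapped. Elovl6 (0.61 ± 0.11, adjusted p = 0.00202) and Me1 (0.60 ± 0.17, adjusted p = 0.0392) rose among the fatty acid enzymes. Enterocyte markers also shifted in this arm, with 6 of 12 rising and 2 falling. Their sums were 21680 to 25384 CPM in off and 33302 to 33423 CPM in on libraries. Of 6 epithelial markers 3 rose and 0 fell (sums of 4457 to 4662 CPM in off and 6531 to 6581 CPM in on). The mitochondrial share was 4.37 and 5.92% in off and 3.64 and 3.73% in on libraries, and the part of these shifts was not tested. The count of 9 members became 5 without on replicate 2 and 4 without off replicate 2.

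In COL BRAF organoids the members showed no common direction. This was the culture with Gata4 transcripts, and no other COL culture carried BRAFV600E alone. Of 32, 2 rose and 5 fell, where 19.9% of all genes were called (10.3% up and 9.61% down), and the median was 0.01 against −0.01 over all genes. The on libraries lay above the off libraries for 8 members and below for 11, against 29.3% and 30.7% of all genes. Dhcr7 fell from 174 and 157 CPM to 78 and 80.5 CPM, a fold of 0.479 (−1.06 ± 0.10, edgeR adjusted p = 4.86e-05). Acat2, which feeds acetoacetyl-CoA into the route, fell from 290 and 261 to 183 and 178 CPM (−0.61 ± 0.11, adjusted p = 0.00268). Tm7sf2 fell from 40.8 and 35.4 to 25.8 and 22.0 CPM (−0.67 ± 0.15, adjusted p = 0.00747). In all 3 genes the on libraries lay below both off libraries. Tm7sf2 shares 12.1% of its exonic bases with Vps51, so its count is uncertain.

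Outside the sterol enzymes, Acly fell in COL BRAF from 459 and 401 to 273 and 276 CPM (−0.65 ± 0.10, edgeR adjusted p = 0.00128), and Stard4 from 272 and 311 to 223 and 223 CPM (−0.39 ± 0.11, adjusted p = 0.0263). Me1 rose from 53.8 and 51.3 to 103 and 76.7 CPM (0.77 ± 0.18, adjusted p = 0.009), and Elovl6 from 122 and 129 to 166 and 157 CPM (0.36 ± 0.10, adjusted p = 0.0194; 0.062 without a filter on low counts). Me1 on libraries were far apart but both exceeded the off libraries. Hmgcs1 had 821 and 743 against 758 and 781 CPM, and Insig1 264 and 254 against 274 and 239 CPM, and in both genes the groups overlapped. Scd1 stood at 128 and 107 against 156 and 141 CPM and did not pass (−0.34, adjusted p = 0.0997). Proliferation genes fell here, 8 of 9, with sums of 1682 to 1761 CPM in off and 1076 to 1092 CPM in on libraries. Of 12 enterocyte markers 3 rose and 4 fell, and of 6 epithelial markers 4 rose (sums of 7354 to 7694 CPM in off and 16949 to 17802 CPM in on). The part of these shifts was not tested. The count of 7 became 4 without on replicate 1, without on replicate 2 and without off replicate 2.

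In COL BRAFp53 organoids 11 members rose and 0 fell, where 17.7% of all genes were called (9.95% up and 7.76% down). The median was 0.28 against −0.04 over all genes, and the on libraries exceeded the off libraries for 20 members and lay below them for 2, against 27.6% and 29.4% of all genes. Me1 rose most, from 39.0 and 36.6 to 96.0 and 70.5 CPM, a fold of 2.20 (1.14 ± 0.18, edgeR adjusted p = 0.00126). Pmvk, the phosphomevalonate kinase, rose from 70.3 and 76.5 to 133 and 114 CPM (0.75 ± 0.12, adjusted p = 0.00177). Scd1 rose from 93.5 and 98.0 to 148 and 155 CPM (0.66 ± 0.13, adjusted p = 0.00532). The on libraries of these 3 genes lay above both off libraries. Mvk, Mvd, Fdft1, Nsdhl and Ebp rose by 0.40 to 0.48 and Elovl6 by 0.38. Insig2 stood at 50.2 and 42.2 against 37.0 and 25.8 CPM (0.56 ± 0.17, adjusted p = 0.0454), and Srebf2 at 213 and 221 against 154 and 156 CPM (0.49 ± 0.15, adjusted p = 0.0484). Insig1 and Hmgcs1 overlapped between on and off. The count depended on single libraries, with 3 members called without on replicate 1, 7 without on replicate 2 (5 of them among the 11), 6 without off replicate 1 and 5 without off replicate 2. Of 9 proliferation genes 2 fell (sums of 1858 to 2177 CPM in off and 1365 to 1689 CPM in on), of 12 enterocyte markers 2 rose and 5 fell, and of 6 epithelial markers 4 rose (sums of 7597 to 7904 CPM in off and 15663 to 19582 CPM in on). The share of counts from mitochondrial genes was 6.51 and 8.84% in the off and 2.86 and 2.58% in the on libraries, and the part of these shifts was not tested.

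After induction of p53R172H alone no member passed edgeR's test in either tissue, where 0.142% of all genes were called in COL (0.0316% up and 0.111% down) and 0.0% in SI. With p not adjusted, 13 members in COL and 8 in SI were under 0.05, and these numbers were 5 without COL p53 off replicate 1, 0 without SI p53 on replicate 1 and 3 without SI p53 off replicate 1. No share of all genes was counted for these unadjusted numbers, so they have no background here. In COL p53, 28 of 32 values lay below 0, with a median of −0.24 against 0.0 over all genes. All 18 sterol enzymes were among the 28, at −0.66 to −0.05. The on libraries lay below the off libraries for 19 members, against 19.6% of all genes. Enterocyte markers were lower in the same libraries, with 11 of 12 values below 0 (median −1.05), 3 of 12 called down and sums of 2633 to 2750 CPM in off and 1659 to 2148 CPM in on, and their part was not tested. Hmgcs1 stood at 833 and 730 against 1259 and 1037 CPM (−0.55 ± 0.13, adjusted p = 0.156), Acat2 at 152 and 173 against 240 and 224 CPM (−0.51 ± 0.11, adjusted p = 0.125), and Lss had −0.66 ± 0.14 (adjusted p = 0.118). For Hmgcs1 and Acat2 the on and off libraries did not overlap. DESeq2 called 6 of the members lower (Lss, Idi1, Hmgcs1, Acat2, Acss2 and Cyp51). Without a filter on low counts edgeR also called 6 lower (Lss, Hmgcs1, Acat2, Scd1, Acss2 and Insig1). Over all genes in COL p53, DESeq2 called 119 higher and 205 lower, and edgeR without the filter 194 and 375. The main fit called 6 and 21. In SI p53, DESeq2 called 0. There 25 values lay above 0 (median 0.20 against 0.0), the on libraries exceeded the off libraries for 21 members against 18.1% of all genes, and the lowest adjusted p was that of Msmo1 (0.39 ± 0.11, adjusted p = 0.555). Scd1 stood at 613 and 521 against 433 and 434 CPM in SI p53 (0.39 ± 0.12, adjusted p = 0.586).

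Whether added p53R172H changed the BRAFV600E response was tested as the difference of the responses, which also compares 2 cultures. In SI 6 members had a smaller response in BRAFp53 than in BRAF and 0 a larger one, where 8.2% of all genes differed (1.93% up and 6.28% down). These were Hsd17b7 (−0.97 ± 0.20, edgeR adjusted p = 0.00885), Sc5d (−0.77 ± 0.17, adjusted p = 0.0159), Tm7sf2 (−0.77 ± 0.19, adjusted p = 0.0237), Sqle (−0.62 ± 0.14, adjusted p = 0.0181) and Msmo1 (−0.60 ± 0.16, adjusted p = 0.0331), all sterol enzymes, with Insig2 (−0.80 ± 0.19, adjusted p = 0.0187). The median difference was −0.45 for the 18 sterol enzymes and −0.32 for all members, against 0.03 over all genes. The count rested on few libraries. Without SI BRAF on replicate 1 the named members kept their calls, and the median difference of all members was −0.33. Only the call of Hsd17b7 was left without on replicate 2 or off replicate 2 of SI BRAF. The same held without on replicate 2 or off replicate 1 of SI BRAFp53. With a replicate block the calls of Msmo1 (edgeR adjusted p = 0.0595) and Insig2 (0.0545) were lost. Of the 12 enterocyte markers 10 also had a smaller response in BRAFp53. All 9 proliferation genes had values above 0 (median 0.43, 2 with unadjusted p under 0.05, 0 called). Of 5 small intestine region markers 3 had a lower and 1 a higher response. Of 2 colon region markers tested 1 had a lower one. The part of these shifts was not tested.

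In COL 3 members had a higher response in BRAFp53 than in BRAF, where 0.907% of all genes differed (0.532% up and 0.374% down). The BRAF side was again the culture with Gata4 transcripts. For the same difference, 8 of 9 proliferation genes had values above 0 (median 0.46, 4 with unadjusted p under 0.05, 0 called) and 3 of 12 enterocyte markers were called, and their part was not tested. Dhcr7 differed by 1.05 ± 0.14 (edgeR adjusted p = 0.0326), since it stood at 135 and 136 against 142 and 132 CPM in COL BRAFp53, with groups that overlapped, but at 78 and 80.5 CPM in the on libraries of COL BRAF. Scd1 differed by 1.0 ± 0.19 (adjusted p = 0.0436) and Acly by 0.73 ± 0.15 (adjusted p = 0.0477), with Acly at 360 and 373 against 367 and 327 CPM in COL BRAFp53. The count fell to 0 without COL BRAF on replicate 1, on replicate 2 or off replicate 1, and without COL BRAFp53 on replicate 2 or off replicate 2, and to 1 (Dhcr7) without COL BRAF off replicate 2.

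The response to BRAFV600E alone differed between the tissues for 18 members, all with a higher response in SI, where 10.7% of all genes differed (7.4% higher and 3.31% lower in SI). The median difference was 0.69 against 0.01 over all genes, and 29 of 32 values lay above 0. The COL side of this comparison was the culture with Gata4 transcripts and an uncertain label, and the part of this was not tested. Scd1 differed most, by 2.27 ± 0.19 (edgeR adjusted p = 5.09e-07). The reductases Dhcr7 (1.2 ± 0.14, adjusted p = 2.9e-05) and Tm7sf2 (1.38 ± 0.21, adjusted p = 0.000252) fell in COL BRAF. Tm7sf2 also rose in SI BRAF, and Dhcr7 had no call there. Hsd17b7 (1.38 ± 0.23, adjusted p = 0.000673) and Hmgcs1 (0.98 ± 0.17, adjusted p = 0.000739) rose in SI BRAF without a call in COL BRAF. Of the 18 sterol enzymes 14 differed, with a median of 0.77, and the other 4, Pmvk, Mvd, Fdps and Acat2, did not pass. Insig1 (0.95 ± 0.25), Insig2 (1.04) and Stard4 (0.68) differed among the control genes. Scd1 was the only fatty acid enzyme that did so, and Me1 and Elovl6 did not pass. Enterocyte markers had a higher response in SI in 9 of 12 cases, and their part was not tested. Without SI BRAF on replicate 1 the count was 17, and Idi1 no longer passed (0.57, adjusted p = 0.107). Without SI BRAF on replicate 2 it was 18, with Insig1 lost (0.89, adjusted p = 0.0506) and Acat2 gained (0.71, adjusted p = 0.022), and it was 13 without COL BRAF on replicate 2 or SI BRAF off replicate 2.

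**Figure D4:**
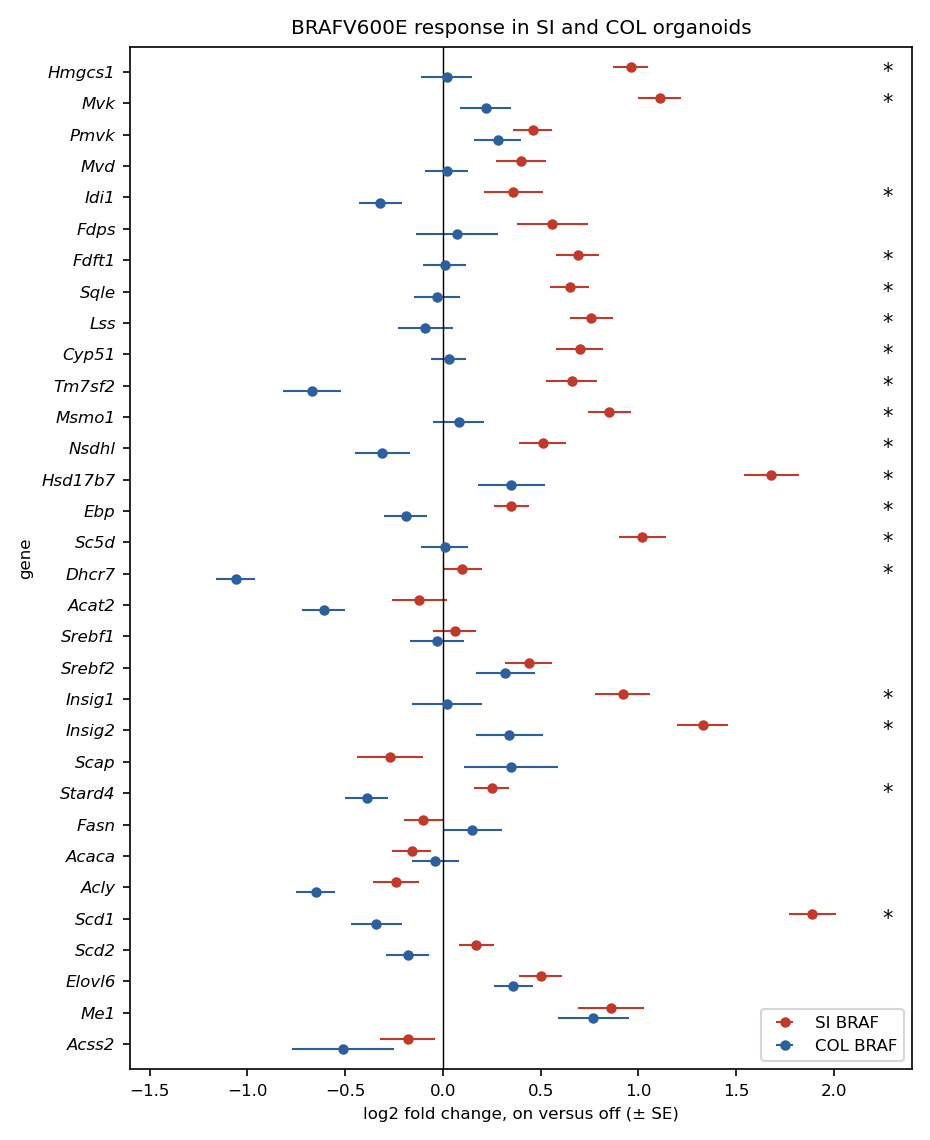
Log2 fold change ± SE of on against off for the 32 members in SI BRAF (red) and COL BRAF (blue), 2 on and 2 off libraries each, with an asterisk where the difference of the responses passed an adjusted p of 0.05. The asterisks cover 14 sterol enzymes, Insig1, Insig2, Stard4 and Scd1.

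For the response to both mutants, 1 member differed between the tissues, where 3.52% of all genes did (2.13% higher and 1.39% lower in SI). This was Scd1, with a response higher in SI by 0.84 ± 0.19 (edgeR adjusted p = 0.017). The difference of Insig1 was 0.85 and did not pass (adjusted p = 0.0648). The median difference was −0.04 against 0.06 over all genes. For the same difference 7 of 12 enterocyte markers were called up and 1 down (median 1.17), and their part was not tested. The count was 0 without COL BRAFp53 on replicate 1 or off replicate 2, or without SI BRAFp53 on replicate 2 or off replicate 2.

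Across the 4 arms with BRAFV600E, Elovl6 and Me1 rose in all 4, and Mvk, Insig2 and Scd1 in 3. The other members that rose did so in 2 arms (9 members) or 1 arm (7), and 11 rose in none. Of the 16307 genes tested in both tissues, 2.51% rose in 4 arms, 3.42% in 3, 6.57% in 2, 13.8% in 1 and 73.7% in none. The COL BRAF call of Me1 was lost without on replicate 1 or off replicate 2, and that of Elovl6 without any 1 of the 4 libraries. Mvk and Insig2 were not called in COL BRAF, where Mvk stood at 82.8 and 84.9 against 69.4 and 74.6 CPM and Insig2 at 41.5 and 39.2 against 33.6 and 30.3 CPM. Their on libraries lay above the off libraries there too. Dhcr7 was the 1 member called lower in 2 arms, COL BRAF and SI BRAFp53, where 6.19% of all genes were, and its call in SI BRAFp53 was not stable. Fasn and Acaca, the core enzymes of fatty acid synthesis, passed in none of the 4.

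Members that come as pairs of related genes were also read as ratios of counts per kb within each library, which do not depend on library scaling. Scd1 over Scd2 went from 0.198 and 0.180 to 0.615 and 0.635 on induction of SI BRAF. In SI BRAFp53 the ratio went from 0.388 and 0.355 to 0.989 and 0.941, and in SI p53 it was 0.385 and 0.370 in off and 0.448 and 0.407 in on. The SI BRAF culture thus started from a lower ratio than the other SI cultures, while all COL libraries lay at 0.0722 to 0.107. Insig1 over Insig2 was 12.9 and 10.8 in SI BRAF off and 9.27 and 8.58 in on libraries, but 15.6 and 14.0 against 15.7 and 16.8 in SI BRAFp53. In COL the same ratio went from 9.16 and 8.84 to 7.14 and 7.27 in BRAF and stood at 1.77 to 2.95 in the p53 culture. Srebf1 over Srebf2 was 1.25 and 1.38 in SI BRAF off and 0.959 and 1.07 in on libraries. In COL BRAF it was 0.744 and 0.873 in off and 0.656 and 0.609 in on, and in COL p53 0.875 and 0.838 in off and 1.14 and 1.11 in on libraries. The COL p53 on libraries were the only ones in COL with more Srebf1 than Srebf2 per kb.

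**Figure D5:**
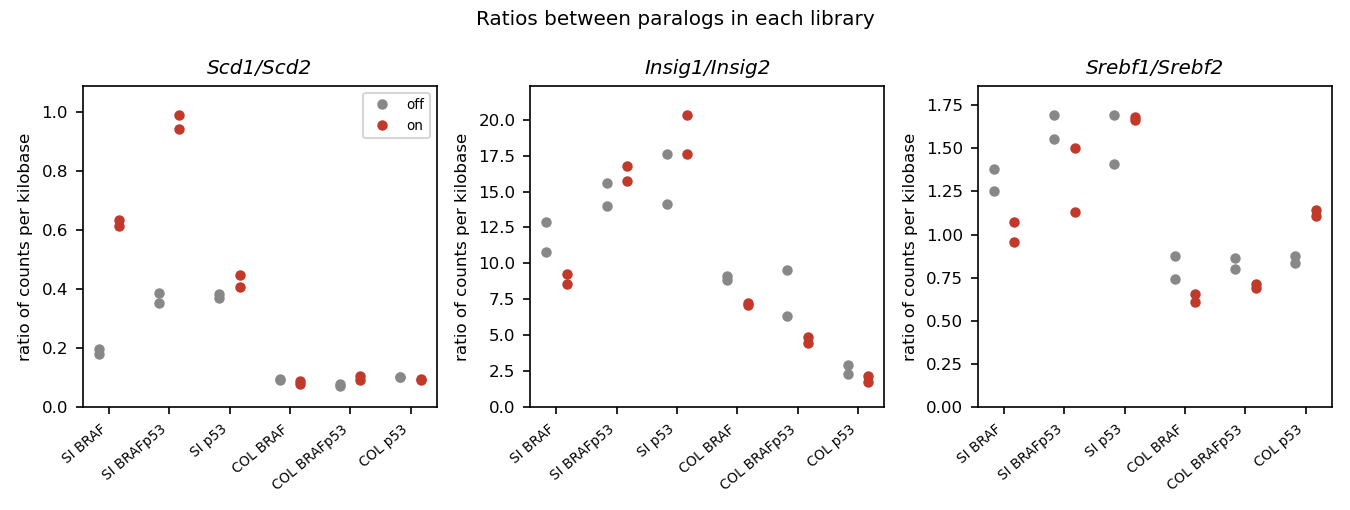
Ratio of counts per kb for Scd1 to Scd2, Insig1 to Insig2 and Srebf1 to Srebf2, with 1 point per library, by tissue, genotype and state (off grey, on red). The Scd1 to Scd2 ratio is highest in the SI BRAFp53 on libraries and lowest in COL.

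Other genes of the pathway were read from 4 further lists, for which the share of all genes called was 31.7% in SI BRAF, 11.5% in SI BRAFp53, 19.9% in COL BRAF and 17.7% in COL BRAFp53. Of 9 other genes of SREBP processing, 4 rose and 0 fell in SI BRAF, 0 moved in SI BRAFp53, and 1 rose and 2 fell in each of COL BRAF and COL BRAFp53. Pgrmc1, a sterol-binding membrane protein, went from 288 and 236 to 673 and 899 CPM in SI BRAF (1.58 ± 0.14, edgeR adjusted p = 3.74e-06) but fell in COL BRAF (−0.49 ± 0.10, adjusted p = 0.0051) and COL BRAFp53 (−0.33 ± 0.10, adjusted p = 0.0374). Of 11 other isoprenoid and sterol genes, 2 rose and 1 fell in SI BRAF, 0 rose and 1 fell in SI BRAFp53, 1 rose and 4 fell in COL BRAF, and 1 rose and 2 fell in COL BRAFp53. Acat1, the mitochondrial thiolase, fell in all 4 arms, by 0.83 (COL BRAF), 0.44 (COL BRAFp53), 0.71 (SI BRAF) and 0.77 (SI BRAFp53) on the log2 scale. Pdss1, which makes the side chain of ubiquinone, fell in both COL arms (−0.92 and −0.49).

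Of 16 genes of sterol transport, efflux and storage (15 tested in SI), 7 rose and 1 fell in SI BRAF, 4 rose and 0 fell in SI BRAFp53, 2 rose and 4 fell in COL BRAF, and 3 rose and 2 fell in COL BRAFp53. Npc1, which exports cholesterol from lysosomes, rose in COL BRAF (1.36, edgeR adjusted p = 0.000674) and COL BRAFp53 (1.21, adjusted p = 0.00151). Nr1h3, a sterol-sensing receptor, fell in both (−1.42 and −1.06). Abcg5, a sterol exporter, rose in SI BRAF (0.87) and SI BRAFp53 (0.89) and fell in COL BRAFp53 (−1.28, adjusted p = 0.0499). Of 23 other genes of fatty acid and glycerolipid synthesis, 7 rose and 3 fell in SI BRAF, 3 rose and 2 fell in SI BRAFp53, 4 rose and 6 fell in COL BRAF, and 7 rose and 4 fell in COL BRAFp53. Acsl5, which activates fatty acids, rose in all 4 arms, most in SI BRAF, from 617 and 511 to 2238 and 2527 CPM (2.08 ± 0.12, adjusted p = 1.14e-07). Dgat2, the last enzyme of triglyceride synthesis, rose in SI BRAF (1.86 ± 0.16) and SI BRAFp53 (1.45) and did not pass in COL (0.29 and 0.38). Fads1, a desaturase of polyunsaturated fatty acids, fell in SI BRAF (−1.26 ± 0.22), COL BRAF (−1.09) and COL BRAFp53 (−0.99). Without SI BRAF on replicate 1 the SI BRAF counts of the 4 lists were the same except for the isoprenoid and sterol genes, of which 2 rose and 3 fell, and Pgrmc1 (1.8), Acsl5 (2.18), Dgat2 (2.06), Abcg5 (0.99), Acat1 (−1.01) and Fads1 (−1.81) were still called. None of these lists had a member called in either p53 arm, where 0.142% and 0.0% of all genes were called.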

How the data were processed

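RNA from 24 organoid libraries (12 SI and 12 COL) was sequenced as paired ends. The files hold counts of reads for each gene, which the authors made without normalization and with replicates kept apart. Per the submitters' processing notes reads were trimmed with Trimmomatic 0.36 and aligned with STAR 2.5.2b. The methods of the study name mm10 while the notes also list mm9, and neither the release of the annotation nor the handling of strand was given in the sources used here, so counts of overlapping genes are uncertain. Of 45706 Ensembl identifiers 45143 matched GENCODE M21 (GRCm38), and 563 without a match stayed in the fits.

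Counts were scaled by TMM and filtered with filterByExpr, which left 18972 genes in COL, 16856 in SI, 19673 in the joint fit and 17789 in the comparison of off organoids. The 12 libraries of a tissue were fitted in one quasi-likelihood model (edgeR 4.0.16, R 4.3.3), and the tissues' responses in a joint model of all 24. For off organoids the 2 libraries of a culture were summed. A call means a p under 0.05 after Benjamini-Hochberg adjustment over all genes tested, and SE is the absolute log2 fold change over the square root of F. CPM are counts over the TMM-scaled library size of the tissue fit, or of the joint set for off cultures. At these depths the members held enough counts that the spread between libraries, not counting error, limits precision. Alternatives were DESeq2 1.42.0, voom of limma 3.58.1, a replicate block, RLE size factors, no filter, a minimum of 10 counts in each library and leaving out each library. The fits were tested on simulated data with known changes.

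The members, lists and tests were chosen with earlier results of these data known. All members are covered, and those called in 3 or more BRAF-bearing arms or with the largest changes are given per library in at least 1 arm. Genes outside the list are named where they passed in 3 or more of the 4 BRAF-bearing arms in one direction or in both such arms of a tissue, up to 3 per list. Replicate libraries correlated at 0.9902 to 0.9959 (Pearson's r over genes) and differed beyond sampling noise, so each was counted. The numbers of the replicates did not pair the libraries (correlations of deviations from −0.039 to 0.057 per culture).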

Additional observations from a re-analysis of the deposited data

Results flagged for a closer look

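The results listed here are those in which the response to induction differed between tissues or between genotypes by the edgeR test of the difference itself. The BRAF response was higher in SI than in COL for 18 members, by 0.98 for Hmgcs1, 0.93 for Mvk, 0.72 for Idi1, 0.71 for Fdft1, 0.71 for Sqle, 0.89 for Lss, 0.71 for Cyp51, 1.38 for Tm7sf2, 0.82 for Msmo1, 0.86 for Nsdhl, 1.38 for Hsd17b7, 0.58 for Ebp, 1.06 for Sc5d and 1.2 for Dhcr7 among the sterol enzymes (log2). It was higher by 0.95 for Insig1, 1.04 for Insig2 and 0.68 for Stard4 among the control genes and by 2.27 for Scd1. For the response to both mutants Scd1 differed between the tissues by 0.84. Of all genes, 10.7% differed between the tissues in the BRAF response and 3.52% in the BRAFp53 response.

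In SI the BRAFp53 response was below the BRAF response for 6 members, with differences of −0.62 for Sqle, −0.77 for Tm7sf2, −0.60 for Msmo1, −0.97 for Hsd17b7, −0.77 for Sc5d and −0.80 for Insig2. In COL it was above the BRAF response by 1.05 for Dhcr7, 0.73 for Acly and 1.0 for Scd1. Of all genes, 8.2% differed in SI and 0.907% in COL. With a replicate block 4 of the SI members and 0 of the COL members stayed called. Each of these contrasts also compares different cultures, and those between tissues different 4-HT doses, days and media, which cannot be told apart.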

How the results depend on the processing

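No call changed direction under any alternative (89 pairs of member and comparison). With DESeq2 and without a filter on low counts COL p53 had 6 members called in place of 0, and the COL difference (BRAFp53 response less BRAF response) 5 and 6 in place of 3. The SI difference had 12 with DESeq2 in place of 6. Over all genes DESeq2 called 560 higher and 1529 lower for it, against 325 and 1058 in the main fit. For the COL difference DESeq2 called 819 genes higher and 547 lower, and edgeR without a filter 712 and 600, against 101 and 71. The difference of the BRAFp53 responses between tissues had 3 with DESeq2 and 3 with at least 10 counts in every library, in place of 1. It had 2 with limma-voom and 2 without a filter. Over all genes these fits called, in this order, 711 up and 843 down, 477 and 539, 401 and 276, and 783 and 765. The main fit called 419 and 274. With a replicate block COL BRAFp53 had 7 called in place of 11, the SI difference 4 in place of 6 and the COL difference 0 in place of 3. Of the pairs of member and comparison 63 stayed called and 13 did not. In COL BRAFp53 the lost calls were Elovl6 (edgeR adjusted p = 0.0574), Mvk (0.0623), Ebp (0.0597) and Srebf2 (0.073). In COL BRAF they were Elovl6 (0.0578) and Stard4 (0.0588), and in SI BRAFp53 Insig2 (0.0551) and Dhcr7 (0.0739). In the SI difference they were Msmo1 (0.0595) and Insig2 (0.0545), and in the COL difference Dhcr7, Scd1 and Acly. Without 1 library at a time the counts ranged from 4 to 5 (COL BRAF), 0 to 0 (COL p53 and SI p53), 3 to 7 (COL BRAFp53), 0 to 3 (COL difference), 16 to 21 (SI BRAF), 4 to 7 (SI BRAFp53), 1 to 9 (SI difference), 13 to 18 (BRAF, SI minus COL), 0 to 1 (BRAFp53, SI minus COL) and 10 to 15 (off organoids). The causes of these shifts were not tested. With 2 libraries per group from 1 culture, differences between animals were not measured.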
